A study of Mus musculus with 2 samples.

Results

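The mitochondrial respiratory chain and ATP synthase are built from subunits of both genomes, and the genes described here are the nuclear ones. They were taken as the protein-coding rows of both gene tables whose symbol begins with Nduf (letters a, b, c, s or v and a number), Uqcr, Cox4 to Cox8 with a letter, or Atp5, together with Sdha to Sdhd, Cyc1 and Cycs. The rule found 86 genes among 21474 protein-coding rows and 43346 Ensembl rows. By known assignment, 35 belong to complex I, 4 to complex II, 9 to complex III, 20 to complex IV and 17 to complex V, and Cycs encodes the soluble carrier cytochrome c. Ndufa4 bears a complex I name but is known as a subunit of complex IV, so it was counted there with its paralog Ndufa4l2. The rule leaves out Ndufab1, Usmg5 and Atpif1, whose products also belong to these enzymes or bind them.

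Both libraries are total RNA of liver from B6NCrl mouse embryos at embryonic day 16.5, pooled over males and females. Replicate 2 pooled 41 embryos, and the number for replicate 1 is not given in the labels. No strain, treatment or age differs between them, so the only comparisons are between genes and between the 2 libraries, and no p-value is possible. Both carry 1 donor identifier, and their difference measures the spread between these 2 pools. Expected counts, the authors' estimates of reads per gene, summed to 44477766 in replicate 1 and 48820712 in replicate 2. All 8 hepatocyte and all 8 erythroid markers exceeded 100 TPM in each library. In such bulk tissue, fewer cells of a type and less RNA per cell cannot be told apart.

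Complex I oxidises NADH and complex II oxidises succinate, and both pass electrons to ubiquinone. Complex III hands them to cytochrome c, complex IV reduces oxygen, and the proton gradient that I, III and IV build drives ATP synthase, complex V. The fetal liver makes blood while its hepatocytes mature, and red cell precursors keep mitochondria, where haem synthesis starts and ends, until late in their maturation. Several complex IV subunits have tissue forms. In rodents Cox6a1, Cox7a2 and Cox8a are the forms of liver, while Cox6a2, Cox7a1 and Cox8b are those of heart and skeletal muscle.

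Levels are given as TPM, a gene's transcripts as a share of all transcripts of its library, scaled to a fixed total, which corrects for gene length and allows genes to be compared. Values are means of the 2 libraries ± SD (n = 2) unless both libraries are named. The 86 genes held 2.04% ± 0.0679 of all TPM and 1.41% ± 0.0444 of the expected counts on Ensembl genes. Their median was 187 ± 11.8 TPM, against 1.49 for all protein-coding genes. In both libraries 83 members reached 1 TPM, as did 52.2% of protein-coding genes, and 79 reached 10 TPM, as did 26.4%. At 100 TPM or more in both libraries stood 68 members, against 3.98% of protein-coding genes. Of the 895 protein-coding genes at a mean of 100 TPM or more, 7.60% were these subunits. The members below 10 TPM were Atp5s and 6 tissue isoforms of complex IV, of which Cox7b2 and Cox8c held no counts.

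**Figure D1:**
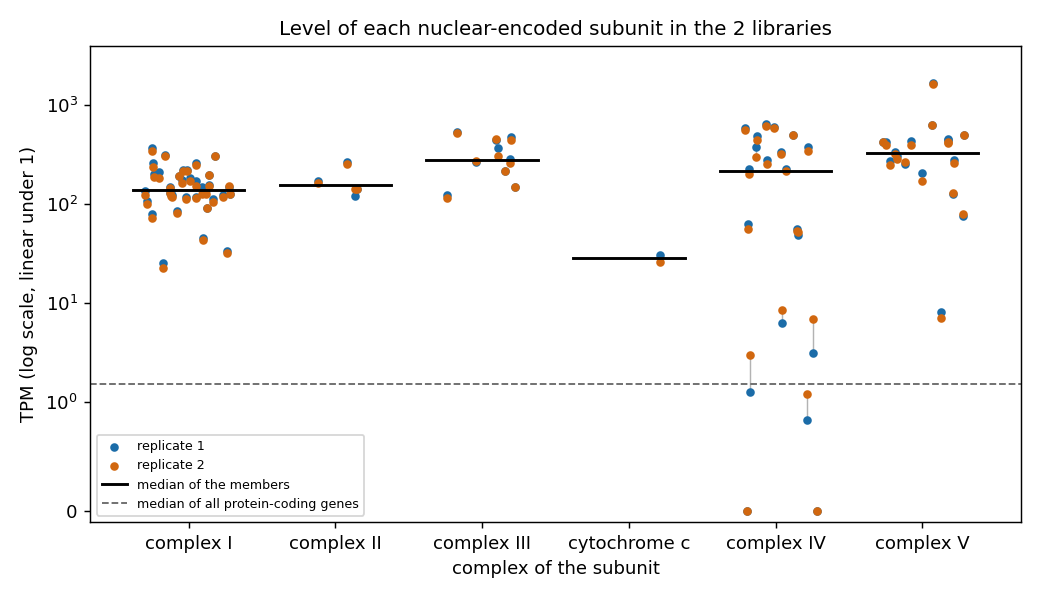
TPM of each of the 86 subunit genes (points, replicate 1 and replicate 2 joined by a line), by complex, on an axis that is logarithmic above 1 and linear below it. Black bars are the medians of the members and the dashed line is the median of all protein-coding genes, 1.49 TPM. The medians run from 28.4 for cytochrome c, a single gene, to 329 for complex V.

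The level varied between the complexes. The median was 140 ± 12 TPM for complex I, 155 ± 1.18 for complex II, 279 ± 11.8 for complex III, 218 ± 10.4 for complex IV and 329 ± 13.7 for complex V. Complex IV held the widest mixture, and without its 8 tissue isoforms its median was 358 ± 31.0 TPM. Complex I and complex II lay close, at 148 and 156 TPM in replicate 1 and at 131 and 154 in replicate 2. Summed over its members, complex V reached 6727 ± 183 TPM, complex I 5475 ± 183, complex IV 4689 ± 212, complex III 2821 ± 100 and complex II 705 ± 2.74. Shorter genes tended to be the higher ones. Over the 78 members without the tissue isoforms, log2 mean TPM and log2 gene length gave Pearson's r of -0.46 and Spearman's rho of -0.48. Over the 14233 protein-coding genes whose expected counts averaged at least 10, r was -0.36 and rho -0.34. These are descriptions across genes of the same libraries, and TPM of short genes rests on fewer reads.

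In complex I, 7 members encode core subunits of electron transfer, and 28 encode supernumerary subunits around that core. The core genes had a median of 126 ± 0.926 TPM and the supernumerary ones 149 ± 0.460, with ranges that overlapped. Among the core, Ndufs7, which carries the last iron-sulfur cluster before ubiquinone, was highest at 194 and 194 TPM in replicates 1 and 2. Ndufv2, of the NADH-oxidising module, stood at 174 and 165, and Ndufv1, which binds FMN and NADH, at 129 and 131. Ndufs3 had 126 and 127 TPM and Ndufs8 108 and 101. Ndufs1, the largest nuclear core subunit, was lowest at 85.1 and 80.9 TPM, so Ndufs7 exceeded it 2.34 ± 0.0906 times. The highest genes of the complex were all supernumerary, namely Ndufc1 at 369 and 347 TPM, Ndufb9 at 313 and 305, and Ndufa6 at 307 and 305. Protein-coding transcripts held only 49.6% and 52.0% of the TPM of Ndufc1, which gives 183 and 180 TPM, below Ndufb9 and Ndufa6, whose TPM was all in coding transcripts. The lowest were Ndufa11, at 33.5 and 31.9 TPM, and Ndufb4, at 25.4 and 22.4. Ndufa11 held 3611 and 3717 expected counts on 1 annotated transcript of 2661 nt, where the median gene length of the complex was 718 nt. Its TPM depends on that annotated length. The value of Ndufb4 is uncertain, as described with the copies. The X-linked Ndufa1 and Ndufb11 stood at 199 ± 18.7 and 147 ± 0.912 TPM, within the range of the autosomal members.

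In complex II the 4 subunits lay within 1.99-fold of each other. Sdha, the flavoprotein that oxidises succinate, had 142 and 141 TPM, and Sdhb, the iron-sulfur subunit, 170 and 165. Of the membrane anchors that bind ubiquinone, Sdhd was highest in the complex at 270 and 257 TPM. Sdhc had 121 and 143 TPM, lowest in the complex in replicate 1 but just above Sdha in replicate 2. The ratio of Sdhd to Sdhc was 2.23 in replicate 1 and 1.80 in replicate 2, so their order held in both libraries while its size varied. Sdha over Sdhb was 0.841 ± 0.0147.

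In complex III the small subunits led. Uqcr10 had 543 and 529 TPM, Uqcrq 483 and 448, and Uqcr11 448 and 453. Protein-coding transcripts held 74.6% and 74.8% of the TPM of Uqcrq. That gives 361 and 335 TPM, below the 444 and 449 in coding transcripts of Uqcr11. The redox subunits were lower, with Cyc1, cytochrome c1, at 219 and 218 TPM and Uqcrfs1, the Rieske iron-sulfur protein, at 150 and 149. Of the paired core proteins, Uqcrc1 had 264 and 271 TPM and Uqcrc2, the lowest of the complex, 124 and 114. Uqcrc1 thus exceeded Uqcrc2 2.25 ± 0.162 times although the enzyme holds them in equal number. Cycs, the electron carrier itself, was listed at only 30.8 and 25.9 TPM, and its annotated copies took up more, as shown with the copies.

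In ATP synthase, Atp5b was the most abundant of all 86 genes at 1673 and 1633 TPM. It encodes the catalytic beta subunit of the F1 head. Atp5a1, the alpha subunit present in the head in equal number, had 499 and 501 TPM, a ratio of 3.31 ± 0.0630 between the 2 genes. The other F1 genes were Atp5e (epsilon) at 339 and 319 TPM, Atp5c1 (gamma, the rotating shaft) at 277 and 259, and Atp5d (delta) at 254 and 270. Atp5b exceeded Atp5c1 6.16 ± 0.185 times, in a head that holds more beta than gamma subunits. Both ratios take all annotated transcripts. Protein-coding transcripts alone gave Atp5b 1081 and 1057 TPM, 64.6% and 64.7% of its total. They gave Atp5a1 427 and 434 TPM and Atp5c1 277 and 259, so both ratios would be smaller. The peripheral stalk genes ran from 262 ± 16.7 TPM (Atp5f1) to 439 ± 31.1 (Atp5h). The membrane genes Atp5mpl, Atp5j2, Atp5k and Atp5l ran from 416 ± 25.4 down to 128 ± 1.85, with Atp5l among the uncertain ones. Atp5s, known as coupling factor B and not part of the enzyme's core, was lowest at 8.02 and 6.96 TPM. Transcript ratios are not protein ratios, and no protein was measured.

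The tissue forms of complex IV were those named for liver, by a wide margin. Cox6a1 (ENSMUSG00000041697.8) had 598 and 588 TPM and Cox6a2 (ENSMUSG00000030785.7) 3.14 and 6.84, so the heart and muscle form made up 0.522% and 1.15% of the pair. Cox7a2 had 280 and 257 TPM and Cox7a1 6.27 and 8.55, or 1.83% and 2.69% of a family that also holds Cox7a2l, a supercomplex factor at 55.8 and 53.1 TPM. Cox8a had 501 and 499 TPM, Cox8b 1.26 and 2.93, and Cox8c, a testis form, no counts. Summed, the 3 heart and muscle forms made up 1.06% of the TPM of all 6 genes, 0.768% in replicate 1 and 1.35% in replicate 2. In each pair the forms lay far beyond the spread between libraries.

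The forms of each pair differ along their sequence. The aligned coding sequences were 64.6% identical between Cox6a1 and Cox6a2, 62.6% between Cox7a2 and Cox7a1 and 56.4% between Cox8a and Cox8b, with no identical run longer than 12 nt, and the deposited spread of the count, which reflects reads divided between genes, was 0 in all 6. The final 90 nt of each coding sequence, stop codon included, are shown 5′ to 3′ from GENCODE M21 transcripts, with capitals in the muscle form where it differs from the liver form in the alignment. In these windows 23 bases differ in Cox6a2, 33 in Cox7a1 and 35 in Cox8b. Bases with no partner in the liver form are counted, and bases missing from the muscle form are not. Where the alignment has gaps, the printed lines can be shifted against each other.
Cox6a1: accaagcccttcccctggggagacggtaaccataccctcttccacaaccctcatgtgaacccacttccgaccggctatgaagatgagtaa
Cox6a2: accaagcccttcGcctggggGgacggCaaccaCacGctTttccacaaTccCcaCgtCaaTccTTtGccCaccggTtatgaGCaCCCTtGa
Cox7a2: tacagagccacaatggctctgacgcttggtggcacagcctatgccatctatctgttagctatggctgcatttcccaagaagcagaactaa
Cox7a1: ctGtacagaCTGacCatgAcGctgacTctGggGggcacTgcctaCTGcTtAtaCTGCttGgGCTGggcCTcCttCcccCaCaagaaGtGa
Cox8a: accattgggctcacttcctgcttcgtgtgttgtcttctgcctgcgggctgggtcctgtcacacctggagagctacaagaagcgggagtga
Cox8b: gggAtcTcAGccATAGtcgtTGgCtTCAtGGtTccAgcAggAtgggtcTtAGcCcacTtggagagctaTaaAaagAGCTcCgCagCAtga

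**Figure D2:**
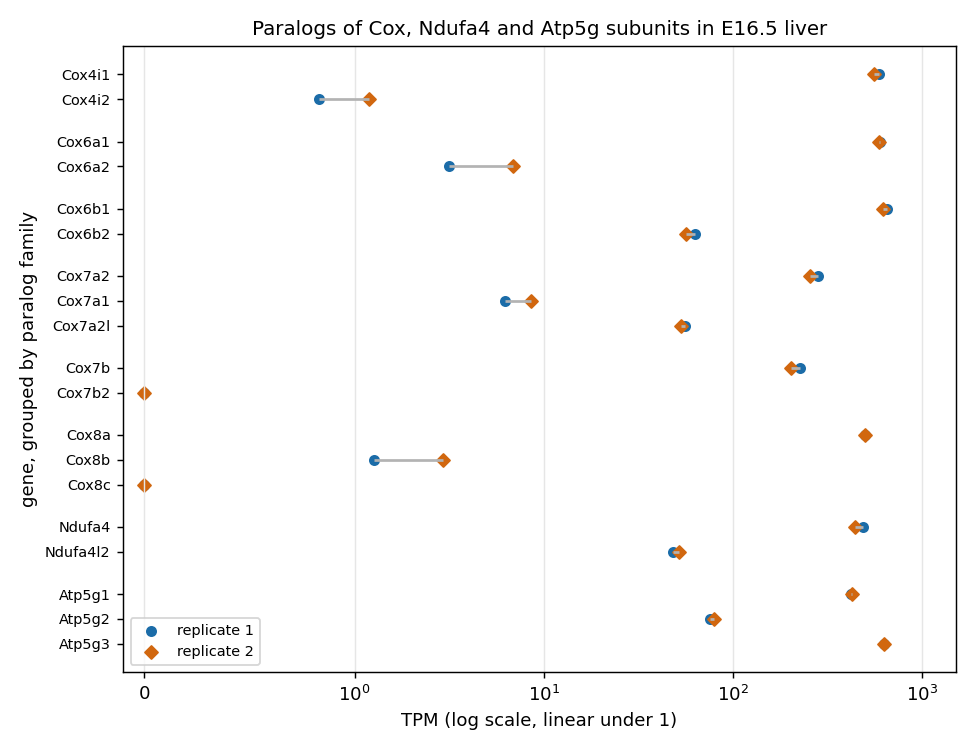
TPM in replicate 1 (circles) and replicate 2 (diamonds) of the genes of the Cox, Ndufa4 and Atp5g paralog families, on an axis that is logarithmic above 1 and linear below it. The liver forms Cox6a1, Cox7a2 and Cox8a sit between 257 and 598 TPM, and Cox6a2, Cox7a1 and Cox8b between 1.26 and 8.55.

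Among the other paralogs, Cox4i1, the common form of the largest nuclear subunit, had 593 and 558 TPM. Cox4i2, its form of lung and of low oxygen, had 0.83 and 1.19 TPM, on 22 expected counts in replicate 1. It made up 0.140% and 0.213% of the TPM of that pair. Cox7b, which is X-linked, had 225 and 204 TPM, while Cox7b2, a testis form, had no counts in 6563 and 6484 counts of the pair. A count of 0 allows a share of up to 0.0457% and 0.0463%, taking 3 counts as the limit. For Cox8c the limits were 0.0319% and 0.0296% of its family's counts. Such limits cover counting error only. The remaining complex IV subunits without a paralog here, Cox5a, Cox5b, Cox6c and Cox7c, stood between 222 ± 5.69 and 364 ± 21.9 TPM. These values take all annotated transcripts. Protein-coding transcripts held only 42.9% and 42.6% of the TPM of Cox5b (146 and 138 TPM). For Cox7b they held 60.8% and 60.9% (137 and 124 TPM). Cox7c has a near-identical copy, as described with the copies.

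Cox6b2, the form known from testis, was an exception in level. It had 62.7 and 56.5 TPM beside 650 and 622 for Cox6b1, which is 8.81% and 8.33% of the pair. Its counts, 1056 in replicate 1, gave a 95% Wilson interval of 8.20 to 9.20% for its share of the pair's counts there and of 7.87 to 8.84% in replicate 2. Germ cell markers did not accompany it. All 10 of the markers for testis and germ cells were below 1 TPM in both libraries, 6 of them at 0, Prm1, Tnp1 and Pgk2 included, and their summed level was 0.520 and 0.290 TPM. The reads of Cox6b2 were spread over its 9 annotated transcripts, the leading one holding 26.7% ± 1.83, and protein-coding transcripts held 83.6% and 83.3% of its TPM. With protein-coding transcripts alone, its share of the pair was 7.25%.

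Ndufa4l2, known as a target of the hypoxia response, had 48.3 and 52.1 TPM beside 488 and 444 for Ndufa4. It made up 9.00% and 10.5% of their TPM, and 17.8% and 20.4% of their counts, as its transcript is longer. Its annotated end overlaps Shmt2, which lies on the opposite strand at 139 and 137 TPM, by 32 bases, and the labels name no strand-specific step. Overlaps with an annotated gene on either strand touched 34 members. In 16 of them that gene had 100 or more mean expected counts, on the opposite strand in all but 1 case.

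The membrane ring of ATP synthase is made of a single mature protein, subunit c, which 3 genes encode with different targeting peptides. Atp5g3 led at 628 and 631 TPM, Atp5g1 followed at 422 and 425, and Atp5g2 had 75.3 and 79.1. Their shares were 55.7% ± 0.170, 37.5% ± 0.0248 and 6.83% ± 0.194. The order was the same in both libraries and the gaps were beyond their spread. The coding sequences are shown for the final 90 nt, in the part that encodes the shared protein, with capitals where Atp5g1 (17 bases) and Atp5g2 (23 bases) differ from Atp5g3.
Atp5g3: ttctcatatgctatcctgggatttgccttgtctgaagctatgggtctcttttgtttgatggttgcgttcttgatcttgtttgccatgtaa
Atp5g1: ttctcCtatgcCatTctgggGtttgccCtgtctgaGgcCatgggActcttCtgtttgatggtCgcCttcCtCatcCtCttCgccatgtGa
Atp5g2: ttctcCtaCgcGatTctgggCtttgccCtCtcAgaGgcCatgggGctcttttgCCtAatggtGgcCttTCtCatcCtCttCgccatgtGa

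Several of these genes have near-identical copies in the genome, which bears on their own levels. Of the 86 members, 23 had an annotated transcript of another gene at 95% identity or more over at least 100 nt, and for 21 the copy was a pseudogene. The program divides reads that fit both, and the deposited spread of the count reached 1% or more in 5 members. For 58 members the counts were whole within 0.01 in both libraries, as happens when no read was divided. Copies that the alignment covers over 50% or more of their length and that hold 100 or more mean expected counts occurred for 7 members, and adding their TPM gave a different picture for 6 of these.

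Cycs, at 30.8 and 25.9 TPM, has the copies Gm10053, annotated as protein-coding and 99.9% identical over 946 nt, and Gm10108, a processed pseudogene 99.4% identical over 319 nt. These were listed at 111 and 99.97 TPM and at 232 and 209. With both added, the sum was 373 and 335 TPM, 12.5 times the level of Cycs alone. Ndufb4, at 25.4 and 22.4 TPM, has the processed pseudogene Ndufb4c, identical over 390 nt and listed at 196 and 175. Together they had 221 and 198 TPM. The short length of Ndufb4c raises that sum, so it does not place Ndufb4 against the other genes of complex I. Atp5l, at 127 and 130 TPM, has Gm10221, identical over 309 nt and listed at 471 and 421. Its sum was 598 and 551 TPM. For Cox7c the sum with Gm12338 was 766 and 629 TPM in place of 380 and 297, for Atp5g2 with Gm10175 198 and 193 in place of 75.3 and 79.1, and for Atp5g1 with Gm10039 565 and 551. The short copies raise TPM more than counts. Atp5g1 kept 83.9% ± 1.29 of the joint counts and Cox7c 81.0% ± 1.34, although the TPM of Cox7c was 2.06 times as high with its copy. Atp5g2 kept 45.5% ± 2.08 of the joint counts, Cycs 37.7% ± 0.973, Atp5l 26.9% ± 1.85 and Ndufb4 22.9% ± 0.595. How much of the copies' signal came from the copies themselves was not tested. With the sums, 71 members in place of 68 reached 100 TPM. That number rests on adding the TPM of copies shorter than their gene, not on joint counts at the length of the gene.

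**Figure D3:**
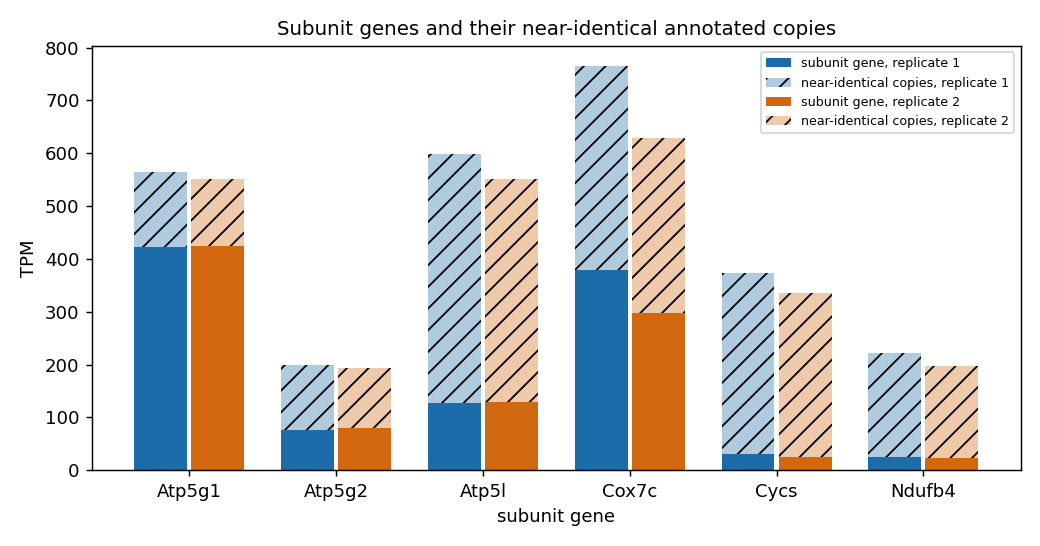
TPM of 6 subunit genes (solid bars) with the TPM of their near-identical annotated copies stacked on top (hatched bars), for replicate 1 and replicate 2. The copies are listed above the subunit gene itself for Atp5g2, Atp5l, Cox7c, Cycs and Ndufb4, and below it for Atp5g1.

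At the level of transcripts, 57 members had several annotated transcripts and counts, and 29 had 1. The most abundant transcript took a median share of 92.3% ± 0.445, at least 50% in 54 members and at least 90% in 32, and it was the same transcript in both libraries in all 57. Atp5c1, whose gamma subunit has a muscle and a common form by splicing, had 93.3% and 90.3% of its TPM in Atp5c1-203 and 16.8 and 24.0 TPM in a coding transcript of 1060 nt. Ndufv3 has a short form and one with a long added exon, and the short Ndufv3-202 held 92.2% ± 0.632. In 5 members the leading transcript is not annotated as coding. These were a nonsense-mediated decay transcript of Atp5f1 (68.3% ± 0.775), retained introns of Atp5j (76.9% ± 0.683) and Ndufa10 (33.2% ± 1.55), and processed transcripts of Cox5b (55.3% ± 0.188) and Ndufa5 (94.2% ± 0.507). For Ndufa5, coding transcripts held 8.28 and 7.97 of 170 and 152 TPM. Such transcripts share most of their exons with the coding ones, so the division of reads among them is uncertain. Atp5j overlaps Gabpa on the opposite strand by 701 bases, and Atp5f1 overlaps Wdr77 by 731.

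The 2 libraries gave nearly the same levels. Across the 86 genes log2(TPM + 1) correlated with Pearson's r of 1.00 and Spearman's rho of 0.99, as a description over genes. To compare them, TPM + 1 of replicate 2 was divided by that of replicate 1, put on the log2 scale, and shifted so that genes averaging at least 100 expected counts had a median of 0. Over the 84 members averaging at least 10 expected counts, the median was -0.09, against 0.01 for protein-coding genes with that count and -0.06 for those at a mean of 100 TPM or more. Of the 84, 72 were lower in replicate 2 (65 without the centring), as were 47.7% of protein-coding genes. Some other lists of mitochondrial genes were lower too, with a median of -0.13 for mitochondrial ribosomal protein genes (69 of 77 lower). Complex I assembly factors had -0.11 (14 of 15 lower), and those of the other complexes between -0.13 and -0.08. Other lists lay nearer the protein-coding genes. TCA cycle enzymes had -0.04 (10 of 14 lower), biogenesis regulators -0.03 (8 of 14) and genes of ADP and phosphate exchange -0.01 (6 of 7). Enzymes that reduce ubiquinone outside the complexes had -0.02 (4 of 8 lower) and genes of ubiquinone synthesis 0.04 (5 of 13 lower). The 13 mitochondrially encoded subunits had 0.06, with 6 lower and 7 higher. Scaled to the spike-ins, all levels shifted down in replicate 2, with a median of -0.34 for protein-coding genes and -0.44 for the members, 81 of which were then lower. The shift was small, and 1 library stood on each side. The deposited TPM intervals of the libraries did not overlap in 33 members, 30 of them lower in replicate 2 and 3 higher (Sdhc, Cox6a2 and Atp5d). Among protein-coding genes averaging at least 10 expected counts, 9.14% were apart and lower and 13.5% apart and higher. Among those at a mean of 100 TPM or more, these were 41.7% and 25.7%. Of the 12 complex IV genes that are not tissue isoforms all 12 were lower, from -0.37 for Cox7c (380 and 297 TPM) to -0.02 for Cox8a. Sdhc, at 0.22 (-0.13 scaled to the spike-ins), was the highest among members at 100 TPM or more.

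Gene length moved with this difference among protein-coding genes at large. Those under 600 nt had a median centred ratio of -0.14 (n = 288) and longer ones 0.01 (n = 13945). Among members without the tissue isoforms, the 31 under 600 nt had a median of -0.10, with 30 lower, and the 47 longer ones -0.09, with 41 lower. Against protein-coding genes of their own length class, the shorter members lay slightly higher and the longer members lower. The main cell types of the tissue moved as well. Of the 8 hepatocyte markers 7 were higher in TPM in replicate 2, with sums of 53452 and 58748 TPM and a median centred ratio of 0.13. Of the 8 erythroid markers 3 were higher and 5 lower, with sums of 351369 and 343163 TPM and a median of -0.03. The parts of length and of cell types in the members' shift were not tested.

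Past a fold of 1.5 lay 2 members, both heart and muscle forms and both higher in replicate 2. Cox6a2 had 74 expected counts in replicate 1 and a centred log2 ratio of 0.90, and Cox8b, on 14 counts there, one of 0.78. Scaled to the spike-ins these values were 0.55 and 0.43, and neither passed. Among protein-coding genes 1.26% passed that fold in this direction. No member was lower by 1.5-fold, as were 0.211% of protein-coding genes. Cox7a1 followed at 0.38, which fell to 0.02 when scaled to the spike-ins. The sum of the 3 forms was 10.7 TPM in replicate 1 and 18.3 in replicate 2, a ratio of 1.72, and the sum of their liver forms 1379 and 1343, a ratio of 0.974.

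Markers of skeletal muscle moved in the same direction. All 11 were higher in TPM in replicate 2, with sums of 184 and 393 TPM. Acta1, the actin of skeletal muscle, had 76.0 and 182 TPM, Ckm, its creatine kinase, 19.3 and 44.6, Myh8, a perinatal myosin, 7.04 and 17.9, and Myog, a factor of muscle differentiation, 2.14 and 3.86. Of 10 heart markers, 6 were higher, with sums of 43.3 and 84.9 TPM. Actc1, an actin that developing skeletal muscle also makes, held most of these at 32 and 70.2, and 4 of the 10 reached 1 TPM in both libraries. The other three were Tnnt2, which had 3.17 and 5.19 TPM, Myl7, with 3.77 and 4.21, and Myl2, with 2.05 and 1.69. The heart genes Myh6 and Nppa stood at or below 0.09 TPM. All 11 smooth muscle and pericyte markers were also higher, at sums of 36.4 and 56.7 TPM. The 7 brown fat markers summed to 70.7 and 73.6 TPM, held mostly by Ppara (37.45 and 45.38), which hepatocytes also express, and Fabp4 (31.24 and 25.97). Of the others, Prdm16 had 1.84 TPM in each library and Ucp1, the uncoupling protein of brown fat, was at 0 in both. The part of muscle RNA in the level of the Cox forms was not tested.

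**Figure D4:**
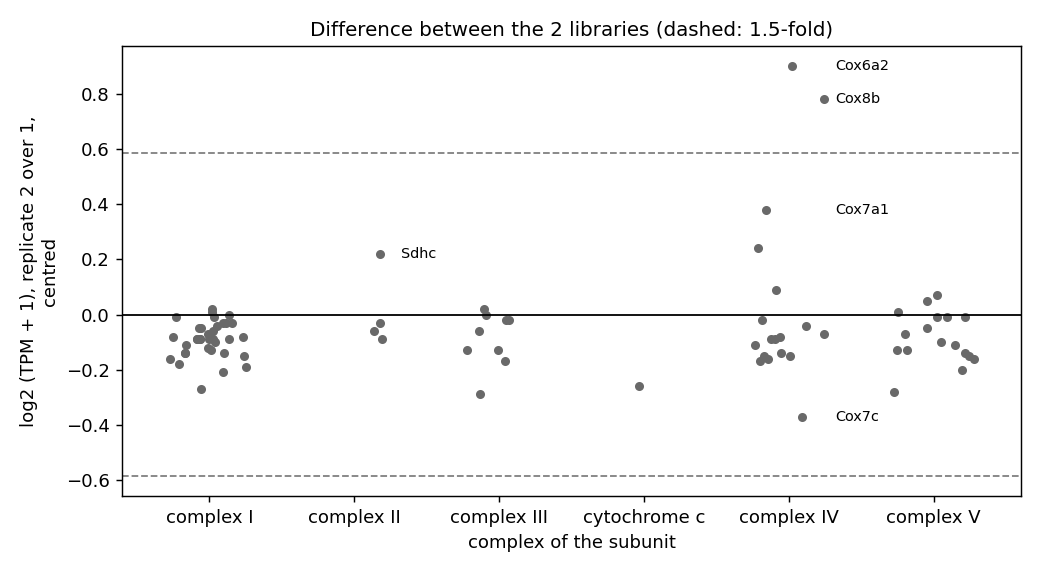
Centred log2 ratio of TPM + 1 between the libraries (above 0: higher in replicate 2) for the 84 members averaging at least 10 expected counts, by complex. The dashed lines mark 1.5-fold. Only Cox6a2 (0.90) and Cox8b (0.78) lie beyond them, and most points lie below 0.

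NRF1 and GABP (also called NRF2) are known activators of respiratory chain genes, and their letters were searched in promoters as a feature that the rule did not use. RefSeq windows (GRCm38.p6) from 250 bases before to 50 after the transcription start matched 67 members by symbol, with 72 windows. The NRF1-like letters GCGCANGCG and the GABPA-like letters CCGGAAGT were sought on both strands, and a palindromic stretch counts on each. The NRF1-like letters were in 21 of 67 members (31.3%), against 7.03% of all 27025 genes with a window, 15.8% of protein-coding genes that reached 1 TPM in each library and 17.0% of those that reached 100. The last group has nearly the members' base composition, with a median GC content of 59.3% against 57.3%. Mitochondrial ribosomal protein genes had them in 23.5%. The GABPA-like letters were in 7.46% of members, 4.31% of all genes and 9.58% of expressed protein-coding genes, so members did not exceed the expressed genes. The promoters of Uqcr11 and Atp5h held both. A match is a description of the letters, not of binding, and no match says only that these letters were not in the window.

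The share varied between the complexes. The NRF1-like letters were in 7 of 13 windowed genes of complex V, 8 of 31 of complex I, 2 of 5 of complex III and 2 of 3 of complex II. In complex IV they were in 1 of 14, Cox6a1, and in none of the 4 tissue isoforms with a window. The windows below run from 180 bases before to 30 after the start, 5′ to 3′ on the strand of the gene, all on the minus strand, with capitals for the motif letters. They show the carrier Cycs (chr6:50566540-50566749), the liver form Cox6a1 (chr5:115348929-115349138), Sdha with 3 matches (chr13:74350211-74350420), Uqcr11 (chr10:80406792-80407001) and Atp5h (chr11:115419890-115420099) with both motifs, and the pair Cox8a (chr19:7217587-7217796) and Cox8b (chr7:140900417-140900626), the liver form with GABPA-like letters and the muscle form with neither.
Cycs: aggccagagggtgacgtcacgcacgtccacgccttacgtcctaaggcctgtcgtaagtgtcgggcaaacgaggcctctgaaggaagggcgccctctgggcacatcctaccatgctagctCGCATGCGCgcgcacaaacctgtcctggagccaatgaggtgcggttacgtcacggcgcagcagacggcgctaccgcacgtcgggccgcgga
Cox6a1: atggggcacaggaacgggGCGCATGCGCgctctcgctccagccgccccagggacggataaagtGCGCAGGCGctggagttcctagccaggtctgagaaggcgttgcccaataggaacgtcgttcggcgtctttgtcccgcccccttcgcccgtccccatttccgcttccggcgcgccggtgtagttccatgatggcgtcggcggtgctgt
Sdha: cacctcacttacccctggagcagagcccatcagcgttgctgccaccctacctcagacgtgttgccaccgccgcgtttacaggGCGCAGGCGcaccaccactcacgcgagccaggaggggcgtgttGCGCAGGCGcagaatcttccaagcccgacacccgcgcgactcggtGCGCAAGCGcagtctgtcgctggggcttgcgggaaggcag
Uqcr11: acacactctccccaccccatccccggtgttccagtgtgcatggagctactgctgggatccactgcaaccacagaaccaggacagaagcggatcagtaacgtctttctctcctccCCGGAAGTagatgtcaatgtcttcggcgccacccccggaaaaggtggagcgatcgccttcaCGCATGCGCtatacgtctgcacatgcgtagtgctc
Atp5h: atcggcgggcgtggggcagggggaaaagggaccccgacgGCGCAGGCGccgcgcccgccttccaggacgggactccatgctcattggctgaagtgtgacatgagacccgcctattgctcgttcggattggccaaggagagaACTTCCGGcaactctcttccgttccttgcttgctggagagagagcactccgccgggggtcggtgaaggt
Cox8a: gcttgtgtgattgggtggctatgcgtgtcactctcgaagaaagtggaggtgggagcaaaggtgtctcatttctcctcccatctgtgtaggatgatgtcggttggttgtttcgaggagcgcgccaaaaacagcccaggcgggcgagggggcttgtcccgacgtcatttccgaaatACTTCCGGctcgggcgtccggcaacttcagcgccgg
Cox8b: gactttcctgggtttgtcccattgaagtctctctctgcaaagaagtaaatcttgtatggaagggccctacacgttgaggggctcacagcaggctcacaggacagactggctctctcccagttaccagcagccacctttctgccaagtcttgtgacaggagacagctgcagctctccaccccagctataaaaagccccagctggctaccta

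**Figure D5:**
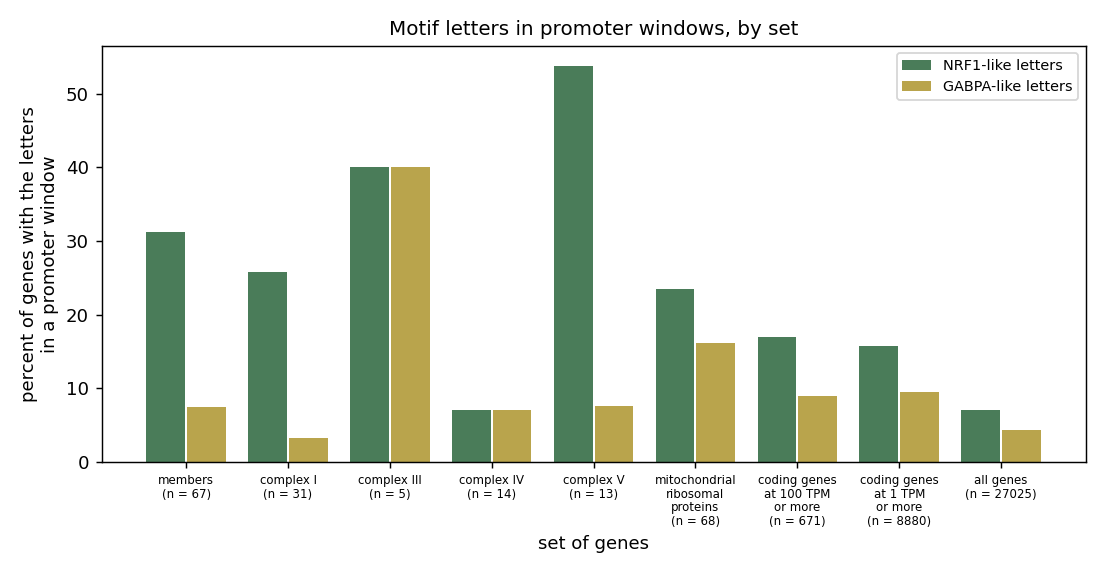
Percent of genes whose RefSeq promoter window holds the NRF1-like or the GABPA-like letters, for the members, for complexes with 5 or more genes, and for comparison sets, with the number of genes under each name. The NRF1-like share is 31.3% for the members and 17.0% for protein-coding genes at 100 TPM or more, and it is lowest among the complexes shown for complex IV.

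Other genes of the same pathway set these levels in context. The 13 subunits that mitochondrial DNA encodes all exceeded 1 TPM, with a median of 867 ± 123 TPM and a range from 60.9 for mt-Nd4l to 3770 for mt-Atp8 and 5523 for mt-Atp6, which share a transcript. Their medians thus exceeded the nuclear members' 187. Assembly factors help to build the complexes without remaining in them. The list for complex IV also holds Slirp, Lrpprc and Taco1, which act on mitochondrial mRNA. By median, the listed factors lay far below the subunits. Their medians were 14.8 ± 0.0849 TPM for complex I (15 genes), 7.79 ± 0.849 for complex II (4), 15.9 ± 1.01 for complex III (6), 20.6 ± 2.38 for complex IV (24) and 26.3 ± 1.49 for ATP synthase (5). Ndufaf8 (35.6 TPM) and Ndufaf1 (25.3) were the highest of complex I and Nubpl (3.27) the lowest. For complex II these were Sdhaf4 (22.5 TPM), Sdhaf2 (11.8) and Sdhaf3 (1.63), and for complex III Uqcc2 (119), Uqcc1 (26.1) and Ttc19 (2.88). In complex IV Cox17, the copper chaperone, reached 205 TPM and Slirp 127, and Pet117 was lowest at 0.970. For ATP synthase Fmc1 (68.5 TPM) and Tmem242 (36.1) led and Atpaf1 (10.7) was lowest. Of these 54 factors, 53 reached 1 TPM in each library, and 3 (Uqcc2, Cox17 and Slirp) at 100 TPM or more.

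Upstream of the chain, the 14 enzymes of the TCA cycle had a median of 86 ± 0.962 TPM, from 41.9 (Idh3a) to 187 (Idh2) and 244 (Mdh2). The genes of routes that bring electrons to ubiquinone outside the complexes ranged from Prodh at 2.00 TPM to Etfa at 212 and Etfb at 285. Etfdh, which passes the electrons of Etfa and Etfb to ubiquinone, stood at 49.0. Genes of ubiquinone synthesis ranged from Coq10a at 0.335 to Coq8a at 35.1 and Coq9 at 51.4. Of the carriers that exchange ADP, ATP and phosphate, Slc25a5 had 340 TPM, Slc25a3 162 and the germ cell form Slc25a31 0.00500. The 77 mitochondrial ribosomal protein genes, all at 1 TPM or more, had a median of 47.5 ± 1.72, from Mrpl11 at 9.16 to Mrps21 at 148 and Mrpl17 at 181. Among regulators of mitochondrial biogenesis, Nrf1 (32.2 TPM) and Tfam (28.3) were highest, while Esrrg was at 0.135. The genes outside the naming rule were Ndufab1 at 355 TPM, Usmg5 at 660 and Atpif1, the ATP synthase inhibitor, at 980. By mean TPM, Atp5b was the only member above Usmg5 and Atpif1.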

How the data were processed

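Levels came from the gene and transcript tables of each library. The authors deposited expected counts, estimated reads that need not be whole, quantified on mm10 with GENCODE M4, per the submitters' text and the file headers. Column names are those of RSEM, with an aligner not given in the sources used here. Deposited TPM values are scaled over all rows, spike-ins included. The deposited percent column of transcript shares was recomputed from TPM. Intervals on TPM are deposited with no level, so they were compared only between libraries.

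Symbols, biotypes and positions were taken from GENCODE M21 (98.0% of 43346 Ensembl rows matched). The members and lists were chosen with earlier results of these data known. Levels are mean and SD of 2 libraries. Genes named with values are the 3 highest and 2 lowest of each complex, the paralog families, the redox core and F1 subunits, members past 1.5-fold, X-linked members, and the 2 highest and lowest of each list; others were chosen after their values were seen. One gene that this rule names is not reported here, and counts and medians include it. Ratios between libraries used a pseudocount of 1, were checked on simulated data and have no test. Near-identical copies were found with blastn 2.17.0 and coding sequences aligned with Biopython 1.88. Alternatives used TMM scaling (edgeR 4.0.16) and median-ratio scaling (DESeq2 1.42.0) of rounded expected counts in R 4.3.3, spike-in totals, other thresholds, folds and pseudocounts, posterior mean TPM and each library alone. The rest was done in python 3.11.15 (numpy 2.4.6, pandas 2.3.3, matplotlib 3.10.9).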

Additional observations from a re-analysis of the deposited data

How the results depend on the processing

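No paired analysis was possible because the series holds a single group. Leaving out 1 library at a time gave a median level of 179 to 196 TPM, a share of all TPM of 2.00 to 2.09%, 68 members at 100 TPM or more in either case, heart and muscle Cox forms at 0.768 to 1.35% and a median leading transcript share of 92.0 to 92.6%. The median level was 216 TPM with TPM rescaled over nuclear protein-coding genes. It was 208 without the tissue isoforms, 202 with near-identical copies added and 202 over members with a count spread under 0.1%, alternatives chosen after seeing the data. The share of all TPM was 2.36% with that rescaling and 1.41% with expected counts. At a threshold of 200 TPM, 39 members passed. Scaled to the spike-ins, which held 2.50% and 3.19% of expected counts, the median ratio of the members was -0.44, and 5 members passed 1.5-fold, all lower in replicate 2. That scaling moved the median of protein-coding genes to -0.34, and the members lay 0.09 below it. Scaling by TMM, DESeq2 or spike-ins, or leaving out the centring, shifts all genes by the same constant. The difference between members and protein-coding genes is therefore equal under each by construction and is not a check. The lower fold tried in place of 1.5 was passed by 4 members and a fold of 2 by 0. With the posterior mean TPM the median leading transcript share was 91.6%. The share of Cox7a1 was 0.856% by counts. The labels' 2 libraries limit every SD to 1 degree of freedom, and Cox8b rests on 14 counts in replicate 1.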
